A study of Homo sapiens with 9 samples.

Results

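The genes described here are 10 heat shock genes of the cytosol and mitochondria: HSP90AA1, HSP90AB1, HSPH1, DNAJB1, DNAJA1, HSPD1, HSPE1, HSPB1, BAG3 and HSF1. They were chosen by name as the HSP90, HSP110, HSP40, HSP60, HSP10 and small HSP genes with the co-chaperone BAG3 and the regulator HSF1, a rule that uses no measured value. They are 10 of the 61544 genes in the count tables, and all 10 were among the 18653 genes with enough counts to be tested. RNA-seq of H1975 cells, an established human lung adenocarcinoma line of epithelial origin, was used to ask how GRP78 that can or cannot enter the nucleus affects gene expression. GRP78, encoded by HSPA5, is the HSP70 chaperone of the endoplasmic reticulum.

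All 9 libraries came from cells that had first been treated for 24 h with si78, which depletes the endogenous GRP78 mRNA by targeting its 3′ untranslated region and spares the plasmid forms. The cells were then transfected for 48 h with empty pcDNA3 plasmid (the Vector group, 3 libraries), a plasmid for FLAG-tagged wild-type GRP78 (F-78(WT), called WT here, 3 libraries) or the same plasmid with 3 lysines of the nuclear localization signal replaced by alanine (F-78(NLS Mut), called NLS Mut here, 3 libraries). Because the Vector cells also carried the knockdown, the comparisons with Vector set cells given back GRP78 against depleted cells. No library without the knockdown was analysed here. Levels are given as CPM, the count of a gene per 1000000 counted reads, scaled between libraries by the trimmed mean of M-values (TMM). A gene was called changed at an adjusted p under 0.05, with edgeR's quasi-likelihood method fitted to every tested gene. The labels do not say whether the 3 libraries of a group came from separate cultures, so the p-values measure the spread between these libraries, which may be technical.

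Heat shock proteins are chaperones that keep other proteins folded or refold them after damage. The HSP70 and HSP90 machines work in the cytosol with HSP40 and HSP110 partners, while HSP60 and HSP10 form a folding chamber in the mitochondrial matrix. Their common regulator, HSF1, is held back by chaperones in unstressed cells and, when unfolded proteins accumulate, binds heat shock elements made of inverted GAA units in the promoters of many of these genes.

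The promoters were searched for such elements because they are the shared regulatory feature of this family. RefSeq windows from 250 bases before to 50 bases after an annotated start (GRCh38.p14) were at hand for 9 of the 10 genes, 15 windows in all, with none for HSF1. The 3-unit motif, GAANNTTCNNGAA or TTCNNGAANNTTC, was matched on both strands and was present in 0.49% of 35116 such windows. It was found in 4 of the 15 windows here, 1 window in each of 4 genes: HSP90AA1, HSP90AB1, DNAJA1 and HSPD1. The matched bases are in capitals, and each site is written 5′ to 3′ on the strand of its gene.
HSP90AA1: ggttcTTCCGGAAGGTTCgggagg
HSP90AB1, site farther from the start: gcaggTTCTGGAAGATTCatgggc
HSP90AB1, site nearer to the start: gattgTTCTGGAAGCTTCtggatt
DNAJA1: gggcgGAACTTTCCAGAAcgctcg
HSPD1: attTTCTGGAAAGTTCTGGAAccg
These sites lie at chr14:102087114-102087137 (minus strand), chr6:44247773-44247796 and chr6:44247826-44247849 (plus strand), chr9:33025271-33025294 (plus strand) and chr2:197500065-197500088 (minus strand). The HSP90AA1 match began 88 bases before an annotated start, and the HSP90AB1 matches 165 and 112 bases before one. The DNAJA1 match lay just past the start. In HSPD1, 2 overlapping 3-unit matches made 1 run of 18 bases that began 245 bases before an annotated start. HSP90AA1 and HSPD1 had 2 windows each, and HSP90AB1 had 3. In each of them the matches lay only in the window farthest downstream, inside the annotated gene. Their distances are thus to a start that lies downstream of another annotated start of the gene.

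The shorter 2-unit motif, GAANNTTC or TTCNNGAA, which is contained in the 3-unit motif, was present in 13.5% of all windows and in 7 of the 15 here. DNAJB1 and HSPB1 held only this shorter form, shown here to set it beside the longer sites.
DNAJB1, site a: gcggggcgGAAGGTTCtggagggg
DNAJB1, site b: gggctctgGAAGCTTCcgccggac
DNAJB1, site c: ctcggccaGAAGCTTCtagcatgt
HSPB1: taacgagaGAAGGTTCcagatgag
The windows of HSPH1, HSPE1 and BAG3 held neither motif, which says only that these letters are not in these windows.

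The 9 libraries held 17671055 to 27476298 reads assigned to genes. HSPA5, the targeted and transfected gene, stood at 378 ± 17.1 CPM in Vector (SD, n = 3), 5664 ± 572 CPM in WT and 4961 ± 195 CPM in NLS Mut, matching the labels. Reads of the plasmid and of the endogenous gene are summed in these values. WT and NLS Mut overlapped in HSPA5, with a log2 difference of 0.19 (edgeR adjusted p = 0.079). All 6 epithelial markers were present in every library, at 185 CPM or more. CD3E and LYZ of leukocytes and DCN of fibroblasts were at 0 counts in all 9, and PTPRC of leukocytes in 5. The fibroblast marker PDGFRB (6.9 to 11.7 CPM) and the endothelial markers PECAM1 (2.96 to 5.74 CPM) and VWF (0.0964 to 0.601 CPM) were counted in every library. The summed level of the lung adenocarcinoma lineage markers NKX2-1 and NAPSA was 23.4 to 26.5 CPM in NLS Mut, below the 28.2 to 33.6 CPM of the other groups, and its part in the differences described here was not tested. Vector replicate 1 stood apart from the other Vector libraries: over all genes its counts differed from theirs by a chi-square per degree of freedom of 11.5 and 12.7, against 4.42 between the other pair. Within the WT group the values were 7.03 to 10.2, and within NLS Mut 3.55 to 4.73. In their trend with GC content it was Vector replicates 2 and 3 that differed from the rest, with log2 levels rising by 0.11 and 0.12 per 10 percentage points of GC, where the slope was -0.05 in Vector replicate 1 and -0.08 to 0.03 in the other 6 libraries. Calls that change without Vector replicate 1 are given both ways.

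HSP90AA1 rose in NLS Mut above both other groups. In the edgeR fit described above it was the only one of the 10 genes called in any comparison. That fit called 0.793% of all tested genes in NLS Mut against Vector, 0.558% in WT against Vector and 0.504% in WT against NLS Mut. DESeq2 called 5 of the 10 in NLS Mut against Vector, where it called 4.31% of the genes to which it gave an adjusted p. HSP90AA1 encodes HSP90 alpha, the stress-inducible cytosolic HSP90, and lies at chr14:102080738-102139699 (minus strand). Its level was 1454, 1468 and 1413 CPM in the Vector libraries, 1670, 1585 and 1659 CPM in WT, and 1806, 1972 and 1858 CPM in NLS Mut. No library of one group fell within the range of another, and WT lay between the other groups. The rise in NLS Mut over Vector was 30% (95% interval 22.2 to 38.4), a log2 fold change of 0.38 ± 0.04 (SE, edgeR adjusted p = 9.1e-06). In these bulk libraries, more cells with a high level and a higher level per cell cannot be told apart. The call was kept without each of the 9 libraries in turn, at log2 fold changes of 0.34 to 0.40 and adjusted p from 4.1e-08 to 4.8e-04.

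WT exceeded Vector in HSP90AA1 by 0.18 ± 0.04 on the log2 scale (95% interval 0.09 to 0.27), which just missed the threshold (edgeR adjusted p = 0.051). DESeq2 gave 0.19 with an adjusted p of 0.011, and the call was made under 8 of 19 other settings. Set directly against NLS Mut, WT was lower by 12.8% for the mean levels of 1638 and 1879 CPM (log2 fold change -0.20 ± 0.04, edgeR adjusted p = 0.031). This call was lost in 7 of 9 fits without 1 library: without Vector replicate 2, without any single WT library and without any single NLS Mut library, with log2 fold changes of -0.22 to -0.16 and adjusted p of up to 0.28.

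HSP90AB1, the constitutive HSP90 beta, showed smaller differences, none of which passed the threshold. It lies at chr6:44246166-44253888 (plus strand). Its level was 1327, 1332 and 1319 CPM in Vector, 1424, 1370 and 1442 CPM in WT, and 1425, 1522 and 1489 CPM in NLS Mut. The Vector libraries were the lowest and nearly equal, while the WT and NLS Mut ranges overlapped. NLS Mut was above Vector by 0.16 on the log2 scale (95% interval 0.07 to 0.25, edgeR adjusted p = 0.084). With DESeq2 the adjusted p was 0.017, with a correction for GC content 0.039, and without Vector replicate 1 it was 0.014. WT differed from Vector by 0.09 (adjusted p = 0.41) and from NLS Mut by -0.07 (adjusted p = 0.59).

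**Figure D1:**
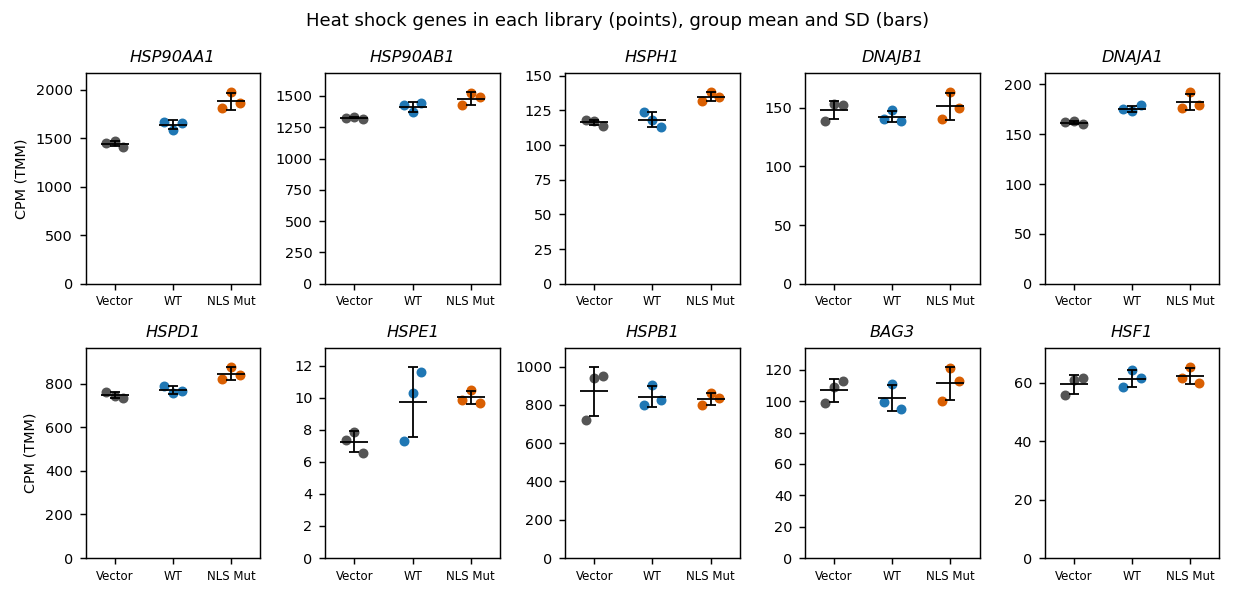
Level of each of the 10 genes (CPM, TMM-scaled, linear axes from 0) in the 9 libraries: points are libraries in replicate order, wide bars the group means and error bars 1 SD. The 3 groups of HSP90AA1 do not overlap, rising from 1413 to 1468 CPM in Vector to 1806 to 1972 CPM in NLS Mut, whereas the groups of DNAJB1, HSPB1, BAG3 and HSF1 overlap throughout.

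The balance between these cytosolic HSP90 genes also lay apart by group, a pattern noticed after the values were seen and given as a description. HSP90AA1 took 52.3%, 52.4% and 51.7% of the counts of both genes in Vector, 54%, 53.6% and 53.5% in WT, and 55.9%, 56.4% and 55.5% in NLS Mut. The 3 groups did not overlap. This share needs no scaling between libraries, because both genes are counted in the same library. The log2 ratio of HSP90AA1 to HSP90AB1 counts was higher by 0.22 in NLS Mut and by 0.09 in WT than in Vector, and lower by 0.13 in WT than in NLS Mut. Each of these has an exact two-sided permutation p of 0.1, the smallest that 3 against 3 libraries allow. The ratios were the same with the counts of both strands summed. The GC content of the pair is close, at 45.2% for HSP90AA1 and 48.1% for HSP90AB1.

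**Figure D2:**
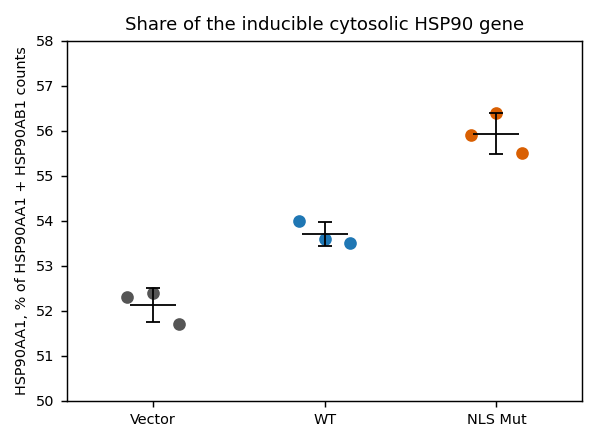
Share of HSP90AA1 in the summed counts of HSP90AA1 and HSP90AB1 (%, axis from 50 to 58) for each library (points), with group means (wide bars) and SD (error bars). Shares run from 51.7 to 52.4% in Vector, 53.5 to 54% in WT and 55.5 to 56.4% in NLS Mut, with no overlap.

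HSPH1 encodes HSP110, which releases ADP from cytosolic HSP70 and so restarts its cycle. It lies at chr13:31134974-31162388 (minus strand). Its level was 118, 117 and 114 CPM in Vector, 124, 118 and 113 CPM in WT, and 132, 138 and 135 CPM in NLS Mut. The NLS Mut libraries were above all 6 others, and Vector and WT overlapped. On the log2 scale the difference was 0.22 for NLS Mut against Vector (95% interval 0.09 to 0.34, edgeR adjusted p = 0.1) and -0.19 for WT against NLS Mut (adjusted p = 0.18), so neither was called. Without Vector replicate 1 the first had an adjusted p of 0.03.

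The HSP40 genes DNAJA1 and DNAJB1 encode J-domain proteins, which deliver unfolded clients to HSP70 and stimulate its ATPase. DNAJA1, at chr9:33025211-33039907 (plus strand), stood at 162, 163 and 160 CPM in Vector, 175, 173 and 179 CPM in WT, and 176, 192 and 179 CPM in NLS Mut. Both F-78 groups were above all Vector libraries and overlapped each other. The log2 fold changes against Vector were 0.18 in NLS Mut (95% interval 0.06 to 0.30, edgeR adjusted p = 0.17) and 0.12 in WT (adjusted p = 0.42).

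DNAJB1, the strongly heat-inducible HSP40, lies at chr19:14514770-14529770 (minus strand) and showed no such order. Its level was 139, 153 and 152 CPM in Vector, 140, 148 and 139 CPM in WT, and 140, 163 and 150 CPM in NLS Mut. All groups overlapped. The log2 fold change of NLS Mut against Vector was 0.03 (95% interval -0.10 to 0.17, edgeR adjusted p = 0.9), so an increase of more than 12.3% lay outside the interval. DNAJB1 shares 211 exonic bases with TECR on the opposite strand, and counting each strand apart raised its total by a factor of 1.15. With those counts the log2 fold change was -0.035.

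The mitochondrial pair HSPD1 and HSPE1 encodes HSP60 and its lid HSP10, and both genes are transcribed outward from a shared promoter, with 104 bases between the nearest RefSeq starts. HSPD1, at chr2:197486581-197516737 (minus strand), stood at 762, 744 and 736 CPM in Vector, 791, 757 and 768 CPM in WT, and 823, 878 and 838 CPM in NLS Mut. The NLS Mut libraries were above all 6 others. The log2 fold change was 0.18 against Vector (95% interval 0.08 to 0.28, edgeR adjusted p = 0.063) and that of WT against NLS Mut was -0.13 (adjusted p = 0.22). The first reached an adjusted p of 0.0057 with DESeq2 and 0.0054 without Vector replicate 1.

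HSPE1, at chr2:197499994-197503457 (plus strand), was counted at only 160 to 268 reads per library, or 7.39, 7.85 and 6.55 CPM in Vector, 7.32, 10.3 and 11.6 CPM in WT, and 9.86, 10.5 and 9.7 CPM in NLS Mut. The NLS Mut libraries were above those of Vector, and WT spanned both. The log2 fold change of NLS Mut against Vector was 0.47 with a wide 95% interval of 0.12 to 0.81 (edgeR adjusted p = 0.22), and that of WT was 0.42 (adjusted p = 0.3). The HSPE1 level is uncertain because reads can be lost to copies and neighbours. The tables list 26 HSPE1 pseudogenes, of which 15 had a count, summing to 14.2% of the HSPE1 counts. HSPE1 also shares 192 exonic bases with the read-through gene HSPE1-MOB4, which had 0 counts in all 9 libraries, and 281 with HSPD1.

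HSPB1 encodes HSP27, a small heat shock protein that holds unfolding proteins without ATP, and lies at chr7:76302544-76304295 (plus strand). Its level was 723, 942 and 949 CPM in Vector, 799, 906 and 826 CPM in WT, and 801, 864 and 834 CPM in NLS Mut. The lowest library was Vector replicate 1, and the other Vector libraries were the highest of all 9. With all libraries the log2 fold change was -0.07 in NLS Mut and -0.05 in WT against Vector (edgeR adjusted p = 0.77 and 0.87). Without Vector replicate 1, HSPB1 was called lower in both, by -0.190 (adjusted p = 0.0091) and -0.166 (adjusted p = 0.02). That fit called 5.05% and 6.33% of all genes in these comparisons. At 64.3% GC, HSPB1 is among the GC-richest of the 10 genes, and with a correction for GC content the differences turned to 0.086 and 0.112. The direction of HSPB1 thus changed with the libraries and the correction used.

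BAG3 encodes an HSP70 co-chaperone that directs damaged proteins to autophagy, and lies at chr10:119651370-119677819 (plus strand). Its level was 98.6, 109 and 113 CPM in Vector, 99.3, 111 and 94.9 CPM in WT, and 99.8, 121 and 113 CPM in NLS Mut. HSF1 itself stood at 55.8, 61.1 and 61.7 CPM in Vector, 58.4, 64.2 and 61.5 CPM in WT, and 61.5, 65.5 and 60 CPM in NLS Mut. All groups overlapped for both genes. The log2 fold changes of NLS Mut against Vector were 0.06 for BAG3 (95% interval -0.10 to 0.21, edgeR adjusted p = 0.83) and 0.07 for HSF1 (-0.09 to 0.22, adjusted p = 0.79). The activity of HSF1 is set mainly at the protein level, which these counts do not measure.

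**Figure D3:**
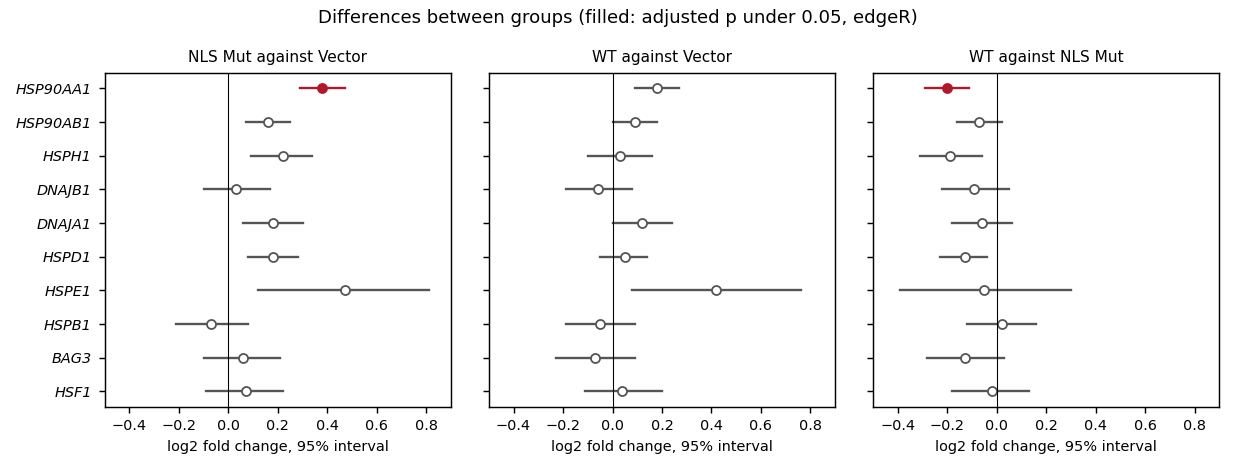
Log2 fold change (points) and its 95% interval (lines) for each gene in the 3 comparisons, from edgeR over all 9 libraries. Filled red points passed an adjusted p of 0.05: HSP90AA1 at 0.38 in NLS Mut against Vector and at -0.20 in WT against NLS Mut.

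Read as a list, the 10 genes were mostly a little higher in NLS Mut than in Vector. In this comparison 1 gene was called higher and none lower, where 0.793% of all tested genes were called in either direction and 0.295% higher. At an unadjusted p under 0.05, 6 of the 10 were higher, against 6.13% of all tested genes. The groups did not overlap for 6 of the 10, all higher (HSP90AA1, HSP90AB1, HSPH1, DNAJA1, HSPD1 and HSPE1), against 9.28% of all tested genes. The log2 fold change was above 0 for 9 of the 10, against 49.7% of all tested genes, with a median of 0.17 against -0.00. DESeq2 called 5 of the 10 (HSP90AA1, HSP90AB1, HSPH1, DNAJA1 and HSPD1), where it called 4.31% of the genes to which it gave an adjusted p. The fit without Vector replicate 1 also called 5, with HSPB1, called lower, in place of DNAJA1, where it called 5.05% of all genes.

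In WT against Vector, 0 of the 10 genes were called by edgeR, where 0.558% of all tested genes were called. At an unadjusted p under 0.05, 4 were higher, against 5.19% of all tested genes, and DESeq2 called 1, HSP90AA1, where it called 2.16% of its genes. Without Vector replicate 1, edgeR called 2 of the 10, HSP90AA1 higher and HSPB1 lower, where that fit called 6.33% of all genes. The groups did not overlap for 3 genes, all higher (HSP90AA1, HSP90AB1 and DNAJA1), against 6.53% of all tested genes. Values above 0 on the log2 scale were found for 7 of the 10, against 49.5% of all tested genes, with a median of 0.05 against -0.00.

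In WT against NLS Mut, 1 gene was called lower, where 0.504% of all tested genes were called and 0.204% were lower. At an unadjusted p under 0.05, 3 were lower, against 6% of all tested genes. The same 3, HSP90AA1, HSPH1 and HSPD1, had groups that did not overlap, against 9.42% of all tested genes. The log2 fold change was below 0 for 9 of the 10, against 51.1% of all tested genes, with a median of -0.08 against -0.01. The comparisons share their libraries in pairs and the genes share their libraries throughout, so these counts are a description of the list.

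The genes differed widely in level when set per length of exon. HSPB1 was highest at a mean of 520 CPM per kilobase (443 to 581 over the 9 libraries), and HSP90AB1 at 472 (443 to 511) overlapped it. HSP90AA1 followed at 315 (269 to 376) and HSPD1 at 186 (173 to 207), each apart from its neighbours. DNAJA1 stood at 63.4 (58.6 to 70.4), above DNAJB1 at 40.1 (37.7 to 44.5) and BAG3 at 38.8 (34.6 to 43.9), which overlapped. HSPH1 at 14.7 (13.5 to 16.4) was above HSF1 at 11.5 (10.5 to 12.3), and HSPE1 was lowest at 4.55 (3.31 to 5.85). Lengths are summed exons of the annotation, so long isoforms that the cells do not use lower these values. Only uniquely mapped reads were counted, which can also lower the value of HSPE1, with its 26 listed pseudogenes.

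In NLS Mut the difference from Vector tended to be larger in genes of lower GC content, which runs from 40% in HSPH1 to 64.7% in HSF1. Over the 10 genes, Spearman's rho between GC content and the log2 fold change of NLS Mut against Vector was -0.65, and 0.02 after each library was corrected for its own GC trend. For WT against Vector it went from -0.42 to 0.47, and for WT against NLS Mut it was 0.62 with and without the correction. After correction HSP90AA1 was still higher in NLS Mut than in Vector, by 0.34 (edgeR adjusted p = 1.6e-06), and lower in WT than in NLS Mut, by 0.21 (adjusted p = 0.0021). The HSPH1 difference in NLS Mut shrank from 0.22 to 0.13 and that of HSPD1 from 0.18 to 0.13, while HSF1 went from 0.07 to 0.21.

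**Figure D4:**
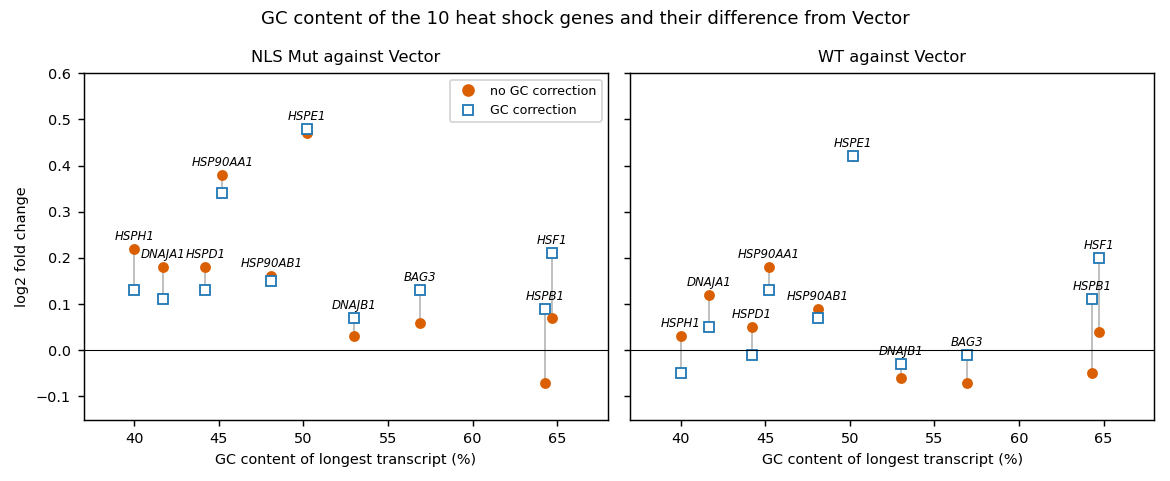
Log2 fold change against Vector (vertical axis) over the GC content of the longest transcript (%, horizontal axis) for the 10 genes, before (filled circles) and after (open squares) correction of each library for its GC trend. HSP90AA1 moves little, from 0.38 to 0.34 in NLS Mut, while HSPB1, with a GC content of 64.3%, changes sign in both panels.

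The partners of these chaperones were described by 5 further lists. Of the 16 HSP90 co-chaperones, 15 were tested (not TTC4). In NLS Mut against Vector 2 were called higher and none lower, where 0.793% of all tested genes were called and 0.295% higher. PTGES3 (p23), which holds HSP90 in its closed state, stood at 360 ± 16.2 CPM in Vector, 381 ± 9.62 in WT and 429 ± 10.5 in NLS Mut (SD, n = 3). Its rise over Vector was 0.25 on the log2 scale (edgeR adjusted p = 0.016). FKBP4 (FKBP52), an immunophilin of HSP90 and steroid receptor complexes, stood at 100 ± 8.68, 98.6 ± 3.6 and 124 ± 3.22 CPM in the same order. It rose by 0.30 in NLS Mut over Vector (adjusted p = 0.026) and was lower in WT than in NLS Mut, at -0.33 (adjusted p = 0.023). PTGES3 was at -0.17 in that comparison (adjusted p = 0.14), with an adjusted p of 0.048 with DESeq2, 0.02 with GC correction and 0.025 without Vector replicate 1. Both genes had NLS Mut libraries above all 6 others. The FKBP4 calls were lost with strand-summed counts, and the call against Vector also without Vector replicate 3 or any NLS Mut library, and that against NLS Mut without WT replicate 1 or 3 or any NLS Mut library. The PTGES3 call was lost without Vector replicate 2 or 3 or any NLS Mut library. The median co-chaperone log2 fold change was 0.12 in NLS Mut and -0.02 in WT against Vector, and -0.14 in WT against NLS Mut. No co-chaperone was called in WT against Vector with all 9 libraries by edgeR or DESeq2. At an unadjusted p under 0.05, 1 was higher and 1 lower of the 15, where 11.7% of all tested genes passed in either direction. At that level 6 of the 15 were higher in NLS Mut against Vector, against 6.13% of all tested genes. In WT against NLS Mut 5 of the 15 were lower, against 6%. Without Vector replicate 1, edgeR called SUGT1 and CDC37 in WT against Vector, and STIP1, PTGES3 and FKBP4 in WT against NLS Mut. That fit called 6.33% and 1.95% of all genes in these comparisons. With all 9 libraries the log2 fold change in WT against Vector was 0.29 for SUGT1 and -0.15 for CDC37. That of STIP1 in WT against NLS Mut was -0.19.

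Of the other heat-inducible genes 7 of 10 were tested. Their median log2 fold change in NLS Mut against Vector was -0.01, with 3 above 0 and 4 below. In this comparison 1 gene of the list was called higher, where 0.295% of all tested genes were. This was HSPA8, the constitutive cytosolic HSP70, at 1109 ± 44 CPM in Vector, 1258 ± 11.4 in WT and 1427 ± 85.6 in NLS Mut (SD, n = 3), with 3 groups that did not overlap. Its log2 fold change was 0.36 in NLS Mut (edgeR adjusted p = 6.4e-05, called without each of the 9 libraries in turn), 0.18 in WT (adjusted p = 0.074), and -0.18 in WT against NLS Mut (adjusted p = 0.067), and DESeq2 called all 3. In the same order DESeq2 called 4.31%, 2.16% and 2.86% of the genes to which it gave an adjusted p. Without Vector replicate 1, edgeR called HSPA8 in all 3 comparisons. It also called SERPINH1, the collagen chaperone of the endoplasmic reticulum, in both comparisons with NLS Mut. That fit called 5.05% of all genes in NLS Mut against Vector, 6.33% in WT against Vector and 1.95% in WT against NLS Mut. SERPINH1 had its lowest mean in NLS Mut, with 689 ± 71 CPM in Vector, 725 ± 3.87 in WT and 648 ± 17.6 in NLS Mut. With all 9 libraries its log2 fold change was -0.09 in NLS Mut against Vector and 0.16 in WT against NLS Mut. The inducible HSP70 genes HSPA1A and HSPA1B gave almost no unique counts, with 7 for HSPA1A in Vector replicate 1 and 0 in the other 8 libraries, and are near-identical copies between which unique reads cannot be placed. They were not tested, nor was HSPA1L.

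No gene of the remaining 3 lists was called by edgeR in any comparison with all 9 libraries and no GC correction. In NLS Mut against Vector at an unadjusted p under 0.05, 3 of 9 other cytosolic HSP40 and HSP110 genes were higher, 0 of 14 mitochondrial chaperones and proteases differed, and 2 of 10 tested small HSP, BAG and HSF genes were higher and 1 lower. At that level 12.2% of all tested genes passed in this comparison, 11.7% in WT against Vector and 11.6% in WT against NLS Mut. In WT against Vector, 2 of the HSP40 and HSP110 genes were higher and 2 of the mitochondrial genes lower, and in WT against NLS Mut 2 of the mitochondrial and 2 of the small HSP, BAG and HSF genes were lower. DESeq2 called HSPB6 in NLS Mut against Vector and HSPA9 in WT against NLS Mut (edgeR log2 fold changes 0.46 and -0.19). It called 4.31% and 2.86% of the genes to which it gave an adjusted p in these comparisons. With GC correction edgeR made these calls too, and called HSPA9 in WT against Vector. The GC-corrected fit called 1.05%, 2.07% and 0.783% of all genes in these comparisons, in the same order. Without Vector replicate 1 edgeR called HSPA9, LONP1 and CLPP in WT against Vector, HSF4 and LONP1 in NLS Mut against Vector, and HSPA9 in WT against NLS Mut. That fit called 6.33%, 5.05% and 1.95% of all genes in these comparisons, in the same order. With all 9 libraries each difference so called without Vector replicate 1 was below 0, from -0.45 for HSF4 to -0.10 for LONP1, both in NLS Mut against Vector. HSPA9 (mortalin), the mitochondrial HSP70 and import motor, stood at 620 ± 12.4 CPM in Vector, 569 ± 17.7 in WT and 649 ± 13.4 in NLS Mut (SD, n = 3). WT was the lowest group and did not overlap the others, with a log2 fold change of -0.19 against NLS Mut (edgeR adjusted p = 0.061).

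**Figure D5:**
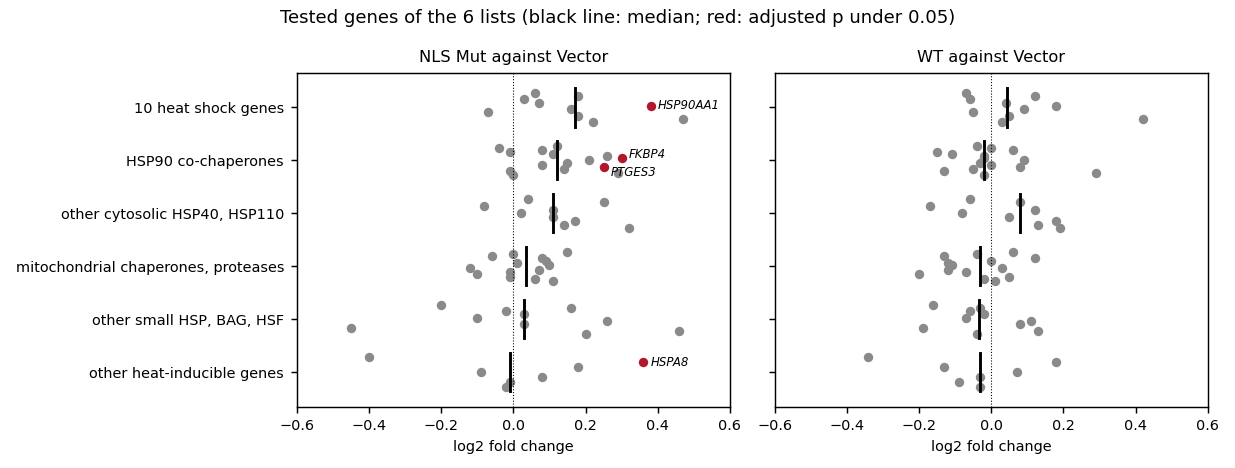
Log2 fold change of every tested gene (points) of the 6 lists, with the list median (black line), in NLS Mut and WT against Vector. Red points passed an adjusted p of 0.05, and these are HSP90AA1, FKBP4, PTGES3 and HSPA8, all in NLS Mut.

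The 10 genes were also averaged, after each was centred and scaled over the 9 libraries, to find the genes with the most similar course. The mean ran from -1.09 in Vector replicate 1 to 1.43 in NLS Mut replicate 2. NLS Mut replicate 1, at 0.15, was close to WT replicate 2, at 0.14. Among 10006 genes outside the lists that averaged 10 CPM or more, MAPKAP1 followed this course most closely (Pearson r = 0.972 over 9 libraries, a ranking with no test). NPM1 (r = 0.958), AKAP1 (r = 0.956), NUP93 (r = 0.95) and CSTF2 (r = 0.946) came next. None of these 5 genes was called, and their log2 fold changes in NLS Mut against Vector were 0.12 to 0.20.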

How the data were processed

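RNA-seq libraries of H1975 cells were compared between 3 groups of 3. Per the labels, the authors aligned reads with STAR 2.7.9a to GRCh38.p14 and used DESeq2 1.36.0. The annotation is not given in the sources used here. The deposited files hold STAR's raw counts of uniquely mapped reads per gene, unstranded and for each strand. The unstranded counts were used, since 50.6 to 51.9% of stranded counts fell on the first strand. Summary lines (27.6 to 30.7% of reads) were left out.

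Symbols came from a reference list of gene names matched by gene ID, or from GENCODE release 29 where that list had none. Positions and GC content of the longest transcript came from GENCODE release 29, matched by gene ID (58325 of 61544), and promoter sequences from RefSeq. Counts of all 9 libraries were fitted with edgeR 4.0.16 (R 4.3.3): filterByExpr, TMM factors (0.989 to 1.02), 1 coefficient per group, glmQLFit and glmQLFTest, with Benjamini-Hochberg adjustment over 18653 genes. The median biological coefficient of variation was 11.2%. The code was tested on simulated data. DESeq2 1.42.0, other scalings and filters, strand sums, GC correction, a replicate block and leave-one-out fits were the alternatives. Exact permutation tests used scipy 1.17.1.

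Genes named with values were the 10 chosen genes, HSPA5, genes of 5 further lists called in any comparison, HSPA1A, HSPA8, HSPA9, genes sharing sequence or exons with the 10, and the 5 genes of most similar course. A gene singled out under an alternative test was named after its values were seen. The genes and lists were chosen with earlier results of these data known.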

Additional observations from a re-analysis of the deposited data

How the results depend on the processing

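The higher HSP90AA1 level in NLS Mut than in Vector was called under all 10 alternatives that kept every library and all 9 that left 1 out. The number of the 10 genes called in this comparison, 1, became 5 with DESeq2, 2 with the replicate block (adding HSPD1), 2 with GC correction and 2 with both (adding HSP90AB1), and 1 to 5 with 1 library left out. In this comparison 0.793% of all tested genes were called. That share was 4.31% with DESeq2, 1.23% with the block, 1.05% with GC correction and 1.37% with both. It ran from 0.171% to 5.05% with 1 library left out. The median log2 fold change of the 10 genes, 0.17, became 0.13 with GC correction, alone or with the block, and 0.13 to 0.19 with 1 library left out. For WT against Vector, 0 became 1 (HSP90AA1) with DESeq2, DESeq2 size factors in edgeR, no low-count filter, a filter of at least 1 CPM in 3 libraries, strand sums and the replicate block, and ran from 0 to 2 with 1 library left out. Of all tested genes 0.558% were called in WT against Vector. In the same order these settings called 2.16%, 0.541%, 0.806%, 0.803%, 0.512% and 1.24%, and 0.0967% to 6.33% with 1 library left out. For WT against NLS Mut, 1 became 2 with the block and GC correction together (adding HSPD1) and ran from 0 to 1 with 1 library left out, where the median ran from -0.11 to -0.03. The share of all genes called in WT against NLS Mut was 0.504%. It was 2.55% with the block and GC correction together, and 0.14% to 1.95% with 1 library left out. Fits without 1 library rest on fewer samples. The cause of the changes in these counts was not tested. Among the 10 genes, FKBP4, PTGES3 and HSPA8, directions turned only for differences that were small in the main fit, from -0.07 to 0.06. They were not small under every setting. HSPB1, which turned, was called lower than Vector without Vector replicate 1, by -0.190 in NLS Mut and -0.166 in WT. In WT against Vector, GC correction without and with the block gave -0.051 for HSPH1 in both, -0.011 and -0.010 for HSPD1, and 0.112 and 0.113 for HSPB1. With 1 library left out, differences that turned ran from -0.003 to 0.061 for HSPH1, -0.166 to 0.017 for HSPB1 (above 0 without Vector replicate 2 or, at 0.016, 3), -0.002 to 0.079 for HSF1 and -0.092 to 0.030 for FKBP4 (0.006 without WT replicate 3). In NLS Mut against Vector, GC correction gave 0.086 for HSPB1 with or without the block, and strand sums -0.035 for DNAJB1. With 1 library left out, DNAJB1 ran from -0.034 to 0.079 (-0.018 without Vector replicate 1) and BAG3 from -0.013 to 0.125 (-0.003 without Vector replicate 1). In WT against NLS Mut, leaving out 1 library gave -0.177 to 0.127 for HSPE1, -0.027 to 0.062 for HSPB1 (-0.000 without NLS Mut replicate 1) and -0.050 to 0.019 for HSF1 (0.017 without WT replicate 1). The block rests on shared replicate numbers only: deviations of same-numbered libraries correlated at -0.0237 to 0.0588, and Vector replicate 3 correlated best with WT replicate 2. Over all genes, WT against Vector had 40 higher and 64 lower calls, 26 and 115 with library size alone, 133 and 129 with DESeq2, and 526 and 730 without Vector replicate 1. NLS Mut against Vector had 55 and 93, then 39 and 133, 226 and 204, and 473 and 529 under the same settings. WT against NLS Mut had 56 and 38, 175 and 141 with DESeq2, and 194 and 193 with GC correction. In the 5 further lists, calls with 1 library left out ran from 1 to 6 in NLS Mut against Vector, against 3 with all libraries. They ran from 0 to 6 in WT against Vector, against 0, and from 0 to 6 in WT against NLS Mut, against 1. Each 6 came without Vector replicate 1. That fit called 5.05%, 6.33% and 1.95% of all genes in these comparisons, in the same order, where 0.793%, 0.558% and 0.504% were called with all libraries. Low counts limit HSPE1, at 160 to 268 per library.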
